A study of Mus musculus with 2 samples.

Results

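Hepatic stellate cells were taken from droplet single-cell RNA sequencing of mouse liver as the barcodes whose UMIs (distinct molecules) met a marker rule. The members were chosen by measured values. Barcodes entered with 200 or more genes detected and no more than 25% of their UMIs from mitochondrial genes. Such a barcode was a member when Lrat, Reln, Colec11, Dcn and Ecm1 together had at least 4 UMIs, Ptprc, Stab2 and Epcam together had at most 1, and Upk3b and Msln had 0. The rule gave 252 members of 8172 kept barcodes (10616 barcodes in all), 176 in the Control library and 76 in the pIVCL library. pIVCL stands for partial inferior vena cava ligation, in which the vein that drains the liver is narrowed so that blood backs up into the organ.

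Each group was 1 library made from a mixed suspension of hepatocytes and non-parenchymal cells of C57BL/6 mouse liver. The pIVCL library came from liver 6 weeks after ligation in animals that were 8 to 10 weeks old at the start, and the Control library from liver that its title calls healthy. The protocol that describes the ligation and that starting age is attached to both samples, so the groups rest on the genotype label and the titles. The sources used here do not say whether Control animals were sham operated or how many animals gave each library, and they name no transgene or other allele. With 1 library in each group every difference compares these libraries, with no replicate check.

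Hepatic stellate cells are the pericytes of the liver sinusoid and lie between the endothelium and the hepatocytes. In healthy liver they are quiescent, store vitamin A as retinyl esters in lipid droplets, secrete factors such as HGF, CXCL12 and BMP family members, and set sinusoidal tone through receptors for vasoactive hormones. After injury they can turn into myofibroblasts, which lose the quiescent genes, gain contractile proteins such as alpha smooth muscle actin and deposit fibrillar collagen.

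The Control library held 3574 barcodes and the pIVCL library 7042, with 24637681 and 38154000 UMIs. Stellate members had a median of 5377.5 UMIs in Control and 4527.5 in pIVCL, 4.84% and 5.12% of them mitochondrial, and summed to 1060980 and 316862 UMIs. One UMI was therefore worth 0.943 CPM (UMIs per 1000000 UMIs of the members) in Control and 3.16 CPM in pIVCL. Intervals are exact 95% intervals (Poisson for a level, Clopper-Pearson binomial for a share, conditional binomial for a ratio) and cover counting error only. A gene was compared when it had at least 20 UMIs over both libraries, and log2 ratios were taken of pIVCL over Control after 20 CPM was added to both, which understates the ratio of low genes. A gene past 2-fold has a log2 ratio of at least 1 in size. Over all 8174 genes compared the median log2 ratio was -0.05, with 238 genes (2.91%) past 2-fold higher and 241 genes (2.95%) past 2-fold lower in pIVCL members. The files shared 13 barcodes, among them 3 Control members and 1 pIVCL member.

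The members were chosen by the UMIs of the 5 rule genes, so their levels are a description. All 5 were carried by most Control members, with at least 1 UMI of Ecm1 in 159 of 176, of Lrat in 149 and of Reln in 145. The summed marker count had a median of 167 UMIs per Control member and 51.0 per pIVCL member. Just inside the limit, 8 Control and 5 pIVCL members had exactly 4 marker UMIs, and just outside it 15 and 14 barcodes that met the other terms had 3. Beyond the marker limit, the term for Ptprc, Stab2 and Epcam left out 48 Control and 40 pIVCL barcodes with 4 or more marker UMIs, whose median depth was 13252 and 8958 UMIs. The term for Upk3b and Msln, mesothelial genes, left out 27 and 13.

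Against 4 other classes cut by the same kind of rule (sinusoidal endothelial, Kupffer, B cell and hepatocyte), the 10 genes with the highest ratio in stellate members were Dcn, Colec11, Col3a1, Col14a1, Igfbp3, Reln, Ecm1, Lrat, Col1a2 and Sod3. Of these, 5 are rule genes and the other five are matrix or secreted proteins, among them the extracellular superoxide dismutase Sod3 at 1609.8 CPM in Control members and at most 10.9 CPM in another Control class. Pdgfrb, the PDGF receptor of pericytes, had 408 and 489 CPM, and Des, the intermediate filament of stellate and muscle cells, 260.1 and 224 CPM. Because the rule genes chose the cells and these sums are over all members, they do not show what each member is.

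Members differed in this profile. In 18 Control and 12 pIVCL members, both the quiescent stellate genes and the collagen chains made up under 0.5% of the cell's UMIs, a cut set after the values were seen. These members had a median of 5 and 7 marker UMIs, close to the limit of the rule. Their endothelial genes stood high: Pecam1 had 89 UMIs in the 18 Control cells and 5 in the other 158, and 19 UMIs in the 12 pIVCL cells and 4 in the other 64. Fabp4, the fatty acid-binding protein of capillary endothelium and adipocytes, had 343 UMIs in the former and 2 in the latter in Control, and 205 and 26 in pIVCL.

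Over all members, summed markers of sinusoidal endothelium were at 517 CPM in Control and 552 CPM in pIVCL, those of vascular endothelium at 268 and 284 CPM, of Kupffer cells at 116 and 237 CPM, of leukocytes at 215 and 256 CPM, of B cells at 36.8 and 82.1 CPM, of cholangiocytes at 3.77 and 9.47 CPM and of mesothelium at 21.7 and 37.9 CPM. Their part in the results was not tested.

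A further group carried fibroblast genes. At least 3 UMIs of Pi16, Clec3b, Dpt and Mfap5 together, genes of portal and adventitial fibroblasts, were present in 10 Control members (5.68%) and 18 pIVCL members (23.7%). In the 18 pIVCL cells Reln had 0 UMIs, Angptl6 had 0 UMIs and Lrat had 8, while Col1a1 stood at 5025 CPM (4616 to 5461) and Dcn at 11117 CPM. Of the 10 portal fibroblast markers, 9 had 20 UMIs and 8 of these were past 2-fold higher in pIVCL members, none lower, with a median log2 ratio of 1.84 and a summed level of 386 CPM in Control and 2736 CPM in pIVCL. Because these cells were a larger share of the pIVCL members, the main results below are also given for restricted members, a set defined after the values were seen. It held the 150 Control and 42 pIVCL members with under 3 UMIs of those fibroblast genes, under 3 UMIs of the endothelial genes Vwf, Pecam1, Ccl21a, Mmrn1 and Lyve1, and at least 4 UMIs of Lrat, Reln, Colec11 and Ecm1 without Dcn, and its median depth was 5206.5 and 3196.5 UMIs. Markers of some other cells were also higher in its pIVCL cells: those of portal fibroblasts summed to 48.3 and 345 CPM, of Kupffer cells to 42.4 and 339 CPM and of leukocytes to 144 and 365 CPM. Those of sinusoidal endothelium were lower, at 231 and 46.5 CPM, as were those of vascular endothelium (9.42 and 6.64 CPM). B cell markers (34.1 and 19.9 CPM) and hepatocyte genes (14612 and 11048 CPM) were lower too. The part of all these markers in the restricted values was not tested.

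Stellate members made up 6.46% of kept Control barcodes (5.56% to 7.44%) and 1.40% of kept pIVCL barcodes (1.10% to 1.74%). The intervals did not overlap, and the share was lower in pIVCL. Restricted members were 5.50% and 0.771%. Among barcodes with at least 2000 UMIs the pIVCL share was 1.90%. The share also depends on how many cells of the other classes were captured: sinusoidal endothelial cells, released from the same vessels, were 39.3% of Control and 8.65% of pIVCL barcodes, and hepatocytes 9.32% and 17.2%. The part of cell isolation in the share was not tested.

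The genes past 2-fold in stellate members were about as many in each direction. Restricted members gave 6818 genes, of which 173 (2.54%) were higher and 340 (4.99%) lower. Among genes that met the ranking limits (30 UMIs, 50 CPM in the higher library), the 10 genes with the highest log2 ratio were S100a6, Acta2, Clec3b, Mfap5, Nts, Col1a1, Tagln, Actg2, Pi16 and Lyve1. Among the 10 with the lowest were Disp2, Fcna, Ccl21a, Ntm, Vwf, Kcnj8, Hgf, Adgrg6 and Eps8. Several of these rest on few cells. All 282 Control UMIs of Ccl21a, a chemokine of lymphatic endothelium, lay in 1 cell, 105 of the 115 Control UMIs of Vwf lay in 5 cells, all 81 UMIs of Nts lay in 4 pIVCL cells, and without the 5% of members highest for the gene in each library all 3 had a log2 ratio of 0.00. Adgrg6 went from -2.11 to -0.39 in the same way. Clec3b, Mfap5 and Pi16 are fibroblast genes of the set above and had UMIs in 8, 8 and 7 pIVCL members, and Lyve1, a hyaluronan receptor of sinusoidal and lymphatic endothelium, in 9. S100a6, a calcium-binding protein of fibroblasts and the gene ranked highest, had 58 UMIs in 15 Control members and 512 UMIs in 31 pIVCL members, a ratio of 29.6 (22.5 to 39.5), and 7 and 46 UMIs in restricted members. It was also higher in pIVCL in sinusoidal endothelial cells (ratio 4.68, 3.06 to 7.19), Kupffer cells (2.51, 2.12 to 2.99) and B cells (2.73, 2.18 to 3.46). In hepatocytes the ratio was 1.55 (0.628 to 4.57).

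**Figure D1:**
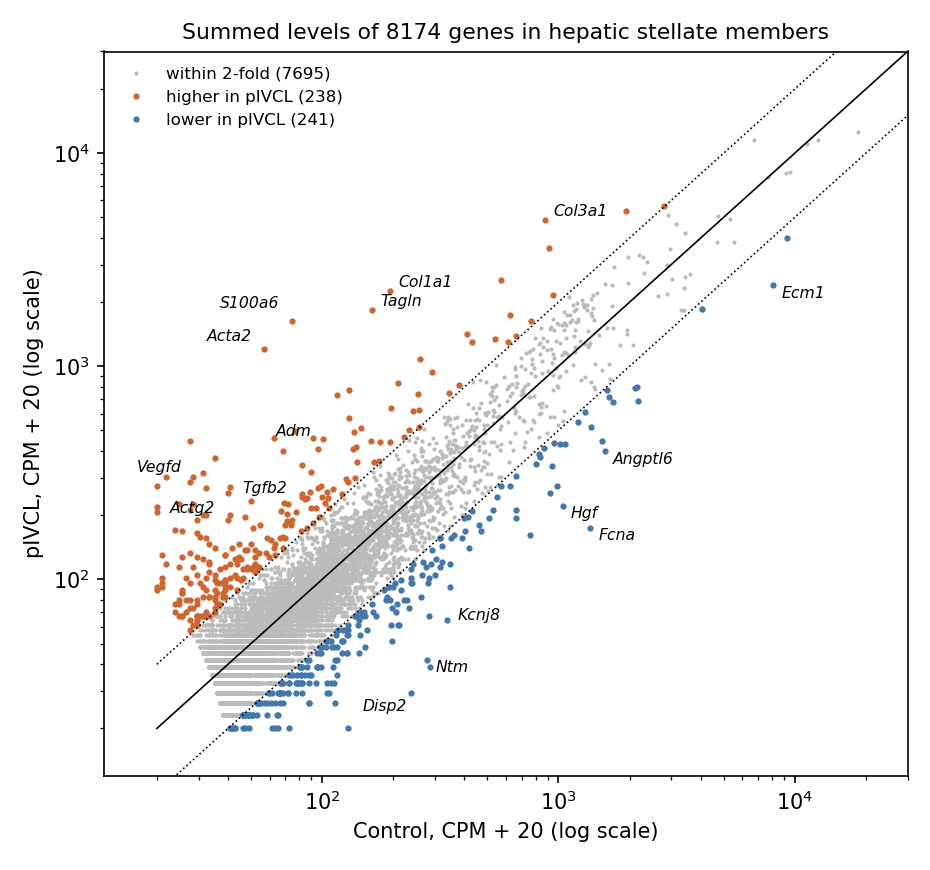
Each point is 1 of 8174 genes, with its summed level in Control members on the x axis and in pIVCL members on the y axis, both as CPM plus 20 on log scales. The solid line marks equal levels and the dotted lines 2-fold, with 238 genes above and 241 below. Collagen and contractile genes are among those named above the lines and quiescent stellate genes among those named below them.

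Genes of the quiescent stellate cell were lower in pIVCL members. Among the rule genes, which chose the cells, Ecm1 (chr3:95734147-95739569), an inhibitor of latent TGF-beta activation, had 8577 UMIs or 8084 CPM in Control and 756 UMIs or 2386 CPM in pIVCL. Lrat (chr3:82892579-82903973), the enzyme that esterifies retinol for storage, had 1590.0 and 754 CPM, Reln 2088 and 770.1 CPM, Colec11 4019.9 and 1843 CPM, and Dcn 18576 and 12564 CPM. In restricted members the log2 ratios of Lrat, Reln and Colec11 were -0.49, -0.84 and -0.54, within 2-fold, and that of Ecm1 was -1.20. The restricted set was itself chosen by UMIs of these genes and leaves out members low in them, so these ratios are a description as well.

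Of 31 further secreted factors, receptors and transcription factors of quiescent stellate cells, 30 had 20 UMIs. Of these 15 were past 2-fold lower and 0 higher, with a median log2 ratio of -1.02 beside -0.05 over all genes. Restricted members gave 11 lower, 1 higher (Itga8, at 1.06) and a median of -0.63. Hgf (chr5:16553495-16620152), the hepatocyte growth factor that stellate cells supply to hepatocytes, had 1085 UMIs or 1023 CPM in Control and 64 UMIs or 202 CPM in pIVCL, a ratio of 0.198 (0.151 to 0.254). It had a UMI in 131 of 176 Control members and 26 of 76 pIVCL members. After each cell was thinned to 1000 UMIs the shares were 63.2% of 152 and 13.8% of 58 cells, against 0% and 0.112% of B cells thinned in the same way, whose median depth before thinning was 3292.5 and 1867 UMIs. The restricted ratio was 0.304 (0.230 to 0.397).

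Angptl6, a secreted angiopoietin-like protein, had 1552 CPM in Control and 379 CPM in pIVCL, a ratio of 0.244 (0.201 to 0.294). Ngfr, the low-affinity nerve growth factor receptor, had 191 and 41.0 CPM. Pth1r, the parathyroid hormone receptor, had 1507 and 426 CPM. All 3 were also past 2-fold lower in restricted members, with log2 ratios of -1.29, -1.35 and -1.27. Ntm, which encodes the cell adhesion protein neurotrimin, was among the lowest of all genes, with 274 UMIs in 99 Control members and 7 UMIs in 4 pIVCL members. Bone morphogenetic proteins followed, with Bmp5 at 511 and 193 CPM (log2 ratio -0.91 in restricted members) and Bmp10 at 208 and 60.0 CPM, and so did the LIM homeobox factor Lhx2 at 328 and 97.8 CPM.

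Not all members of the list were lower. Pdgfrb had a ratio of 1.20 (0.991 to 1.44) and Itga8, an integrin of pericytes, a log2 ratio of 0.88, while Prelp, a matrix proteoglycan, stood at 1686 and 1486 CPM. The gene ranked lowest of all, outside this list, was Disp2, which encodes a protein of the Dispatched family, with 231 UMIs in 79 Control members and 3 UMIs in 2 pIVCL members, a ratio of 0.0435 (0.00890 to 0.129). Fcna, which encodes the lectin ficolin A, had 1342 and 155 CPM and was lower in restricted members as well, at 1658 and 299 CPM. It was also lower in Kupffer cells, at 1902 CPM in Control and 436 CPM in pIVCL (ratio 0.229, 0.208 to 0.251). Sinusoidal endothelial cells had 6.43 and 11.9 CPM.

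**Figure D2:**
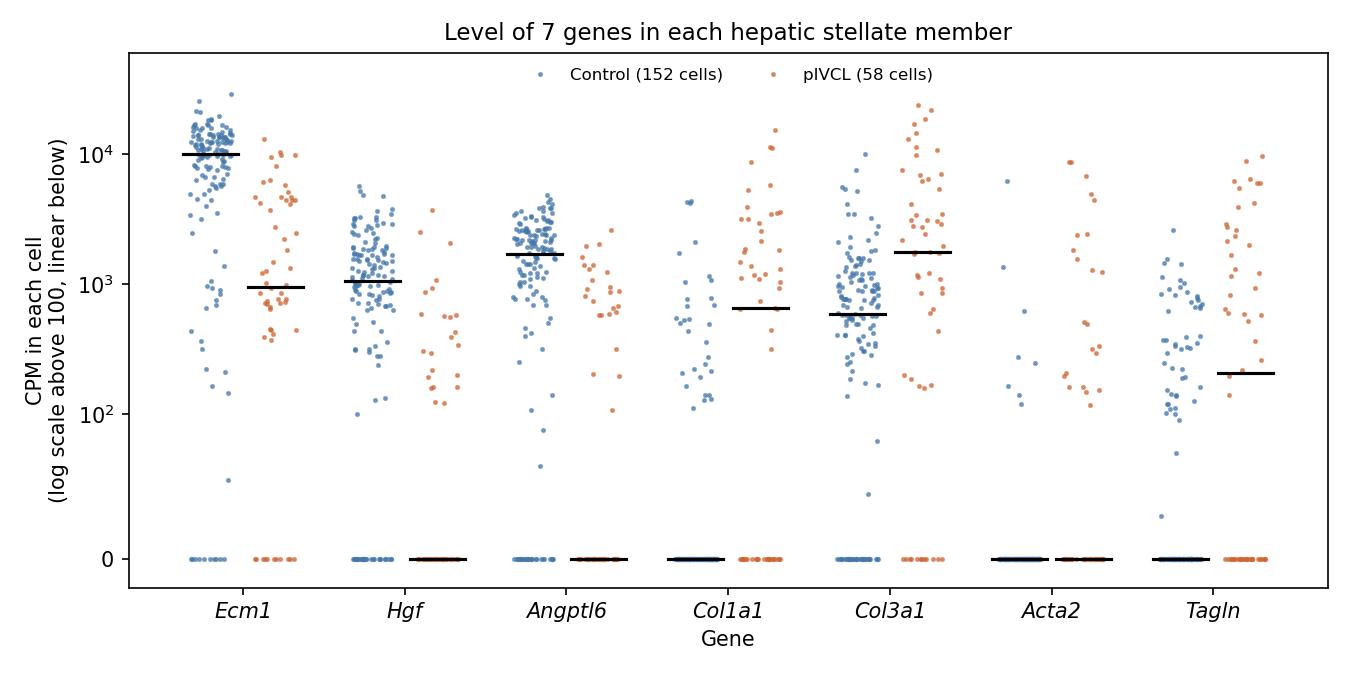
Each dot is 1 member with at least 1000 UMIs (152 Control, 58 pIVCL), placed at its CPM on an axis that is logarithmic above 100 CPM and linear below, and black bars are medians over cells. The pIVCL cells lie lower for Ecm1, Hgf and Angptl6 and higher for Col1a1 and Col3a1, the 2 libraries overlap for every gene, and Acta2 is at 0 in 144 of 152 Control and 35 of 58 pIVCL cells.

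Retinoid and lipid droplet genes other than Lrat, which is counted with the rule genes and was past 2-fold lower, stood on balance near the level of all genes. Of 30 such genes, 19 had 20 UMIs, of which 3 were past 2-fold higher and 0 lower, with a median log2 ratio of -0.08. Plin2, which coats lipid droplets, had 298 CPM in Control and 202 CPM in pIVCL, a ratio of 0.678 (0.510 to 0.890). The 3 higher genes, all of fatty acid handling, were Lpl (222 and 596 CPM), Fabp5 (54.7 and 170.4 CPM) and Fabp4. In restricted members Fabp5 kept a log2 ratio of 1.40, Lpl had 0.48, and Fabp4 had 3 and 1 UMIs.

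Fibrillar collagen genes were higher in pIVCL members. Col1a1 (chr11:94936224-94953042), the alpha 1 chain of type I collagen, had 184 UMIs or 173 CPM in Control and 708 UMIs or 2234 CPM in pIVCL, a ratio of 12.9 (10.9 to 15.2). A UMI of Col1a1 was present in 32 of 176 and 38 of 76 members, and after thinning in 7.89% and 44.8% of cells, against 0% of B cells in both libraries. Col3a1 had 854 and 4822 CPM (ratio 5.65, 5.20 to 6.14), Col1a2 549 and 2509 CPM, and Col5a2 81.1 and 436 CPM. These 4 genes encode chains of the collagen I, III and V fibrils of scar tissue. Restricted members gave ratios of 12.7 (9.48 to 17.2) for Col1a1, 3.63 for Col3a1, 2.70 for Col1a2 and 4.32 for Col5a2. These restricted values rest largely on 7 of the 42 pIVCL cells, those with at least 3 UMIs of Acta2 or Actg2. The 7 cells held 112 of 151 pIVCL UMIs of Col1a1, 285 of 425 of Col3a1 and 141 of 223 of Col1a2. Members with no UMI of Acta2 or Actg2 gave a log2 ratio of 0.83 for Col1a2 and 2.17 for Col1a1.

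Of 20 collagen chains, 17 had 20 UMIs, with 8 past 2-fold higher, 0 lower and a median log2 ratio of 0.95. The restricted values were 6 of 15 higher and a median of 0.60. Col14a1, a fibril-associated collagen that was already among the most stellate-restricted genes, had 2861 and 2979 CPM, a ratio of 1.04 (0.967 to 1.12). Among enzymes that fold and cross-link collagen, 7 of 17 were past 2-fold higher, 0 lower and the median was 0.85 (0.66 in restricted members). Lox, the lysyl oxidase that cross-links collagen and elastin, had 10 UMIs in Control and 54 in pIVCL, or 9.43 and 170.4 CPM, and 2 and 26 UMIs in restricted members. Serpinh1, the collagen chaperone, had 519 and 1316 CPM (ratio 2.53, 2.23 to 2.88).

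The other matrix genes depended more on which cells were counted. Of 36 glycoproteins and proteoglycans with 20 UMIs, 17 were past 2-fold higher and 0 lower, with a median of 0.91, but restricted members gave 8 higher, 2 lower (Mgp and Sparcl1) and a median of 0.16. Eln, which encodes elastin, had 95.2 and 710.1 CPM overall and 27.1 and 206 CPM in restricted members. Ogn, a small leucine-rich proteoglycan, had 48.1 and 382 CPM and 20.0 and 286 CPM in the same order. Mgp, matrix Gla protein, had 391 and 1401 CPM in all members but 55 and 1 UMIs in restricted members. The 4 IGF-binding proteins past 2-fold higher were Igfbp6, Igfbp5, Igfbp3 and Igfbp4, and in restricted members Igfbp3 (1031 and 3807 CPM) was the one that stayed past 2-fold, while Igfbp6 and Igfbp5 had 0 UMIs in pIVCL.

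Among metalloproteinases and their inhibitors, 6 of 14 were past 2-fold higher and 0 lower, with a median of 0.86 (0.39 in restricted members). Timp3, an inhibitor bound to the matrix, had 410.0 and 1275 CPM (ratio 3.11, 2.71 to 3.57) and 201 and 737 CPM in restricted members. Timp1, the inhibitor that activated stellate cells are known for, had 14 UMIs in 7 Control members and 28 UMIs in 8 pIVCL members. All 28 of these lay outside the restricted set, where Timp1 had 13 and 0 UMIs.

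Contractile genes were higher in pIVCL members, and Acta2 was counted in part of the cells. Acta2 (chr19:34241090-34255590), alpha smooth muscle actin, had 39 UMIs or 36.8 CPM (26.1 to 50.3) in Control and 375 UMIs or 1183 CPM in pIVCL, a ratio of 32.2 (23.1 to 46.0). It was detected in 8 of 176 Control and 28 of 76 pIVCL members, 1.32% and 20.7% after thinning against 0% and 0.112% of B cells. The 5 highest pIVCL cells held 283 of the 375 UMIs and the highest held 94. In Control, 30 of the 39 UMIs lay in 1 cell, which had 0 UMIs of Dcn, Lrat and Reln. Kupffer cells had 80.2 and 13.0 CPM of Acta2 (ratio 0.162, 0.0905 to 0.275), above stellate members in Control and lower in pIVCL. Their Tagln level was also lower in pIVCL, at 52.8 and 16.1 CPM, and the source of these UMIs was not tested. Tagln (chr9:45929619-45936058), the actin-binding protein transgelin, had 143 and 1812 CPM (ratio 12.6, 10.6 to 15.2), and Actg2, smooth muscle gamma actin, had 0 UMIs in Control and 63 in 7 pIVCL members, at least 55.5-fold higher by the lower limit of the exact interval (70.3-fold against a floor of 3 UMIs in Control).

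Of 32 genes of the contractile apparatus with 20 UMIs, 12 were past 2-fold higher and 0 lower, with a median of 0.66. Restricted members gave 12 of 29 higher, 0 lower and a median of 0.75, with Acta2 at 43.6 and 1302 CPM. Tpm2, a tropomyosin, had 110.3 and 552 CPM, Myl9, the regulatory light chain of smooth muscle myosin, 119 and 398 CPM, and Myh11, smooth muscle myosin heavy chain, 66.0 and 221 CPM. In the 168 Control and 48 pIVCL members with no UMI of Acta2 or Actg2, the same list had a median of 0.02, Tagln a log2 ratio of 0.80 and Tpm2 of 0.84. That choice uses 2 genes of the list, and it keeps shallower pIVCL cells (median 3415.5 UMIs, against 6032 in the other 28). Vascular smooth muscle cells share these genes: of 8 markers of that cell, 6 had 20 UMIs and all 6 were past 2-fold higher, with a summed level of 285 and 3626 CPM, Cnn1 had 0 and 6 UMIs, and Pln had 0 in both. In restricted members that marker sum was 320.3 and 4624 CPM. In the 7 restricted pIVCL members with at least 3 UMIs of Acta2 or Actg2, the rule genes Lrat, Reln and Colec11 stood at 769, 547 and 2247 CPM, as the choice of these cells requires some of these UMIs. What part vascular smooth muscle cells or doublets have in this result was not tested.

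Serum response factor drives many contractile genes through the CArG box, so the promoters of this list were searched for it in the RefSeq table for GRCm38.p6, which holds 250 bases before and 50 after each start site. The motif is its own reverse complement, so both strands were covered by 1 search. Near matches were not counted, among them ccctatatgg and ccttgtttgg in the Acta2 sequence below, each 1 letter off the motif. Of 28 list genes with a window, 5 (17.9%) held an exact match (Myl9, Myl6, Cnn2, Actg1 and Vcl), against 488 of 27025 genes (1.81%) in the whole table and 0 of 16 collagen chains. Shown are the 250 bases before the start site of the list's highest gene and of 2 genes with a match, 5′ to 3′ on the strand of the gene, with the match in capitals: Acta2 (chr19:34255374-34255623, minus strand, no exact match in the window), Myl9 (chr2:156775214-156775463, plus strand) and Actg1 (chr11:120348496-120348745, minus strand).
Acta2: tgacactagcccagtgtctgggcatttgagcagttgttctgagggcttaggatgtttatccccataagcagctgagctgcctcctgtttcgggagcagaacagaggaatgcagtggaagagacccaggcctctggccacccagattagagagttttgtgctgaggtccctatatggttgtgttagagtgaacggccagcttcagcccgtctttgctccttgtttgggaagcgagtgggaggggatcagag
Myl9: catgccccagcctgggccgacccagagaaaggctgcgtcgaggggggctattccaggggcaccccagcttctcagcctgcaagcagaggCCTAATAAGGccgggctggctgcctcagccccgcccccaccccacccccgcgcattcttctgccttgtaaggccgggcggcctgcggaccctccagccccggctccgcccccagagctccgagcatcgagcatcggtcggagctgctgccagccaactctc
Actg1: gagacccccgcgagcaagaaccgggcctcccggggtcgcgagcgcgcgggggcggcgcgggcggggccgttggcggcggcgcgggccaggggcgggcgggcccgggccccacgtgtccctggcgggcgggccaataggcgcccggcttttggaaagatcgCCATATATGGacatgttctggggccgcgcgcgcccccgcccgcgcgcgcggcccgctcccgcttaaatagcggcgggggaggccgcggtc
The match began 161 bases before the start site in Myl9 and 90 bases before it in Actg1. Levels of the genes with a match ranged from a ratio of 1.34 (1.01 to 1.76) for Vcl to 3.35 (2.59 to 4.32) for Myl9, with 1.60 (1.42 to 1.79) for Actg1. Tagln and Actg2 were not searched, since the table holds no window under their names. A match is a description of the letters and was not tested as a binding site.

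Among targets of YAP/TAZ, the mechanosensitive coactivators, and of serum response factor, 5 of 20 were past 2-fold higher (Tgfb2, Ankrd1, Fhl2, Cyr61 and Ctgf) and 0 lower, with a median of 0.62, and restricted members gave 8 of 18 higher, 0 lower and 0.85. Ankrd1 had 0 UMIs in Control and 23 in 8 pIVCL members. Cyr61 had 116 and 473 CPM (ratio 4.08, 3.20 to 5.23) and Ctgf 62.2 and 230.4 CPM (ratio 3.70, 2.62 to 5.25), which encode matricellular proteins. The restricted ratios were 5.05 and 7.78.

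Tgfb2 (chr1:186622792-186705989), a ligand of the TGF-beta family, had 22 UMIs or 20.7 CPM in Control and 80 UMIs or 252 CPM in pIVCL, a ratio of 12.2 (7.52 to 20.5). The restricted ratio was 17.2 (10.1 to 30.6), while members with no UMI of Acta2 or Actg2 gave a log2 ratio of 0.89. Tgfb1, the best-known fibrogenic ligand, had 89.5 and 91.5 CPM (ratio 1.02, 0.650 to 1.56). Across the TGF-beta, BMP and activin list, 4 of 29 genes were past 2-fold higher (Tgfb2, Tgfb3, Fstl1 and Ltbp3) and 1 lower (Acvr2a, an activin receptor), with a median of 0.03, so the list as a whole stood at the level of all genes.

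Growth factors moved in both directions. In the PDGF, FGF and HGF list 5 of 22 genes were past 2-fold higher (Vegfd, Angpt2, Pdgfa, Pdgfrl and Ereg) and 2 lower (Hgf and Kitl), with a median of 0.32. Restricted members gave 2 of 15 higher and 3 lower. Vegfd (chrX:164373378-164402650), a lymphangiogenic VEGF, had 8 UMIs in 3 Control members and 84 UMIs in 18 pIVCL members, or 7.54 and 265 CPM, a ratio of 35.2 (17.0 to 84.1). In restricted members its 26 pIVCL UMIs lay in 4 cells. Pdgfa had 48.1 and 139 CPM, and Angpt2, an antagonist of the endothelial receptor Tie2, had 5 and 18 UMIs. Kitl, the ligand of KIT, had 61 and 4 UMIs.

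**Figure D3:**
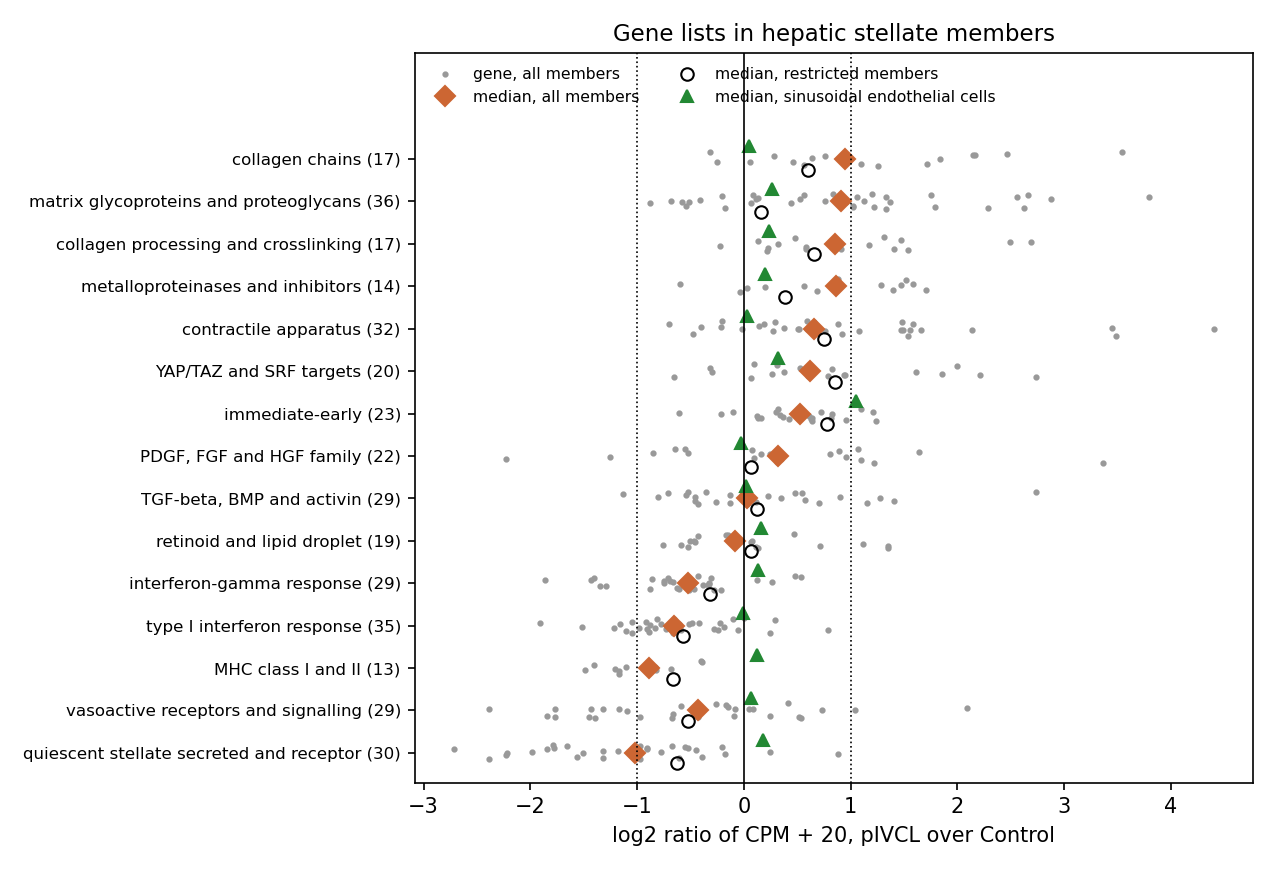
Each grey dot is 1 gene with at least 20 UMIs (their number is in brackets after the list), placed at its log2 ratio in all stellate members. Diamonds are list medians in all members, open circles those in restricted members and triangles those in sinusoidal endothelial cells, and the stellate medians run from -1.02 for the quiescent list to 0.95 for collagen chains.

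Receptors through which vasoactive signals reach stellate cells were lower in part. Of 29 genes with 20 UMIs, 10 were past 2-fold lower and 2 higher (Adm and Edn1), with a median of -0.43 (7 lower, 1 higher and -0.52 in restricted members). Kcnj8 and Abcc9, the subunits of the ATP-sensitive potassium channel of pericytes, had 317 and 44.2 CPM and 967 and 256 CPM. Calcrl, the receptor subunit for adrenomedullin and CGRP, had 642 and 174 CPM (ratio 0.270, 0.202 to 0.356). S1pr3, a sphingosine 1-phosphate receptor, had 189 and 41.0 CPM. Log2 ratios of these 4 in restricted members were -2.10, -1.44, -1.62 and -1.44.

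The 2 endothelin receptors differed: Ednra had 219 and 75.7 CPM (ratio 0.346, 0.217 to 0.528), while Ednrb had 992 and 881 CPM. Agtr1a, the angiotensin II receptor, had 529 and 224 CPM, and the subunits of soluble guanylate cyclase, the nitric oxide receptor, had 915 and 322 CPM (Gucy1a1) and 486 and 174 CPM (Gucy1b1). In restricted members Ednra, Agtr1a and Gucy1b1 were within 2-fold, with log2 ratios of -0.90, -0.74 and -0.98. Adm, which encodes the dilator peptide adrenomedullin, was higher, with 81 UMIs or 76.3 CPM in Control and 124 UMIs or 391 CPM in pIVCL, a ratio of 5.13 (3.84 to 6.87) and of 7.23 (5.33 to 9.85) in restricted members. In the summed counts the ligand was higher and its receptor subunit Calcrl lower, and their relation within single cells was not tested.

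Interferon-response and MHC genes were lower in pIVCL members. Of 35 genes of the type I interferon response with 20 UMIs, 7 were past 2-fold lower and 0 higher, and 31 of 35 had a log2 ratio below 0, with a median of -0.65 (-0.57 in restricted members). Ifit3 had 347 UMIs or 327 CPM in 95 Control members and 23 UMIs or 72.6 CPM in 15 pIVCL members, a ratio of 0.222 (0.139 to 0.339). Ifit1 had 123 and 44.2 CPM and Rtp4 219 and 91.5 CPM. Among interferon-gamma response genes, 5 of 29 were past 2-fold lower and 0 higher, with a median of -0.52 (-0.32 in restricted members), led by the guanylate-binding proteins Gbp4 (92 and 3 UMIs) and Gbp7 (199 and 18 UMIs), with Gbp9 and Cd74, and by the GTPase Iigp1 (441 and 161 CPM).

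All 13 MHC genes with 20 UMIs had a log2 ratio below 0, and 6 were past 2-fold lower, with a median of -0.89 (3 past 2-fold, 12 of 13 below 0 and a median of -0.66 in restricted members). The class I heavy chains H2-K1 and H2-D1 had 3390.3 and 1815 CPM (ratio 0.535, 0.489 to 0.585) and 3267 and 1827 CPM. H2-Q4 and H2-Q7 had ratios of 0.379 and 0.424, and a log2 ratio of -0.87 in restricted members left H2-Q7 within 2-fold. Class II genes were counted in few cells, with H2-Eb1 in 8 Control members and 1 pIVCL member and Cd74 in 20 and 5, and the log2 ratio of Cd74 was -0.29 in restricted members. The near-identical class I genes may share reads, so their single values are uncertain.

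Chemokines were mostly rare. Cxcl12, the stellate chemokine that holds CXCR4-bearing cells, was the highest, with 3626 UMIs or 3418 CPM in Control and 826 UMIs or 2607 CPM in pIVCL, a ratio of 0.763 (0.706 to 0.823). Cxcl14 had 115 and 388 CPM (ratio 3.38, 2.61 to 4.37), and its log2 ratio of 1.60 was 0.78 without the 5% of members highest for it. Cxcl9, the interferon-induced chemokine that the study examined in sinusoidal endothelium, had 2 UMIs in Control members and 1 in pIVCL members, both below the floor of 3 UMIs. Sinusoidal endothelial cells had 249 and 1154 CPM of Cxcl9. In the barcodes with 4 or more marker UMIs that the rule left out for Ptprc, Stab2 or Epcam, Cxcl9 had 60 UMIs (88.5 CPM) in Control and 174 UMIs (416 CPM) in pIVCL, and of these barcodes 32 in Control and 25 in pIVCL had at least 2 UMIs of the endothelial gene Stab2. Cxcl10 had 121 and 148 CPM in members (ratio 1.23, 0.861 to 1.73), with its 47 pIVCL UMIs in 8 cells. Its log2 ratio of 0.26 was -0.83 in members with at most 1 UMI of other cell types' markers and -0.35 without the 5% of members highest for it, so its direction depended on the cells counted.

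Immediate-early genes, which also respond to tissue dissociation, were somewhat higher: 3 of 23 were past 2-fold higher (Egr1, Atf3 and Gadd45b) and 0 lower, with a median of 0.53 (0.78 in restricted members). Egr1 had 361 and 798 CPM. In sinusoidal endothelial cells the same list had a median of 1.05, so it was higher in pIVCL in both cell classes, and its part in the other results was not tested. Hepatocyte transcripts were lower: Alb, Apoa1 and Fabp1 were past 2-fold lower, and the 8 hepatocyte genes summed to 17580.0 CPM in Control and 8748 CPM in pIVCL members. In Control, 6891 of the 9843 UMIs of Alb lay in 5 cells, and the 18 members low in stellate genes held the 8 genes at 55257 CPM against 9723 CPM in the others. Their source in these cells was not tested. Without the 5% of members highest for it, Alb had a log2 ratio of 0.30, and with a limit of 10% mitochondrial UMIs 0.39.

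Set beside sinusoidal endothelial cells of the same libraries, in which 169 of 11353 genes (1.49%) were past 2-fold higher and 115 (1.01%) lower, the lists with the lowest and highest stellate medians were nearer 0. Over the genes detected there, endothelial medians were 0.18 for the quiescent list, 0.05 for collagen chains, 0.03 for the contractile list, -0.01 for the type I interferon list and 0.12 for MHC genes. Other lists had higher endothelial than stellate medians, among them chemokines (1.18 and 0.40), heat shock genes (0.44 and 0.21) and, as above, immediate-early genes. Col1a1 had 1 and 6 UMIs in 1071 and 471 endothelial cells and Acta2 1 and 5. Hgf had 84.5 and 75.6 CPM there, a ratio of 0.894 (0.741 to 1.07), beside 0.198 in stellate members, and the 2 intervals did not overlap. Ifit3 had a ratio of 0.835 (0.690 to 1.01) in endothelial cells, beside 0.222 (0.139 to 0.339). Gbp4 was lower in endothelial cells as well, at 0.672 (0.573 to 0.785), while Iigp1 was higher there, at 2.04 (1.90 to 2.19). Kupffer cells had lower Ifit3 (0.620, 0.467 to 0.820) and Gbp4 (0.509, 0.335 to 0.765), with Iigp1 at 1.07 (0.860 to 1.32). With 1 library in each group the difference between cell classes was not tested across animals.

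**Figure D4:**
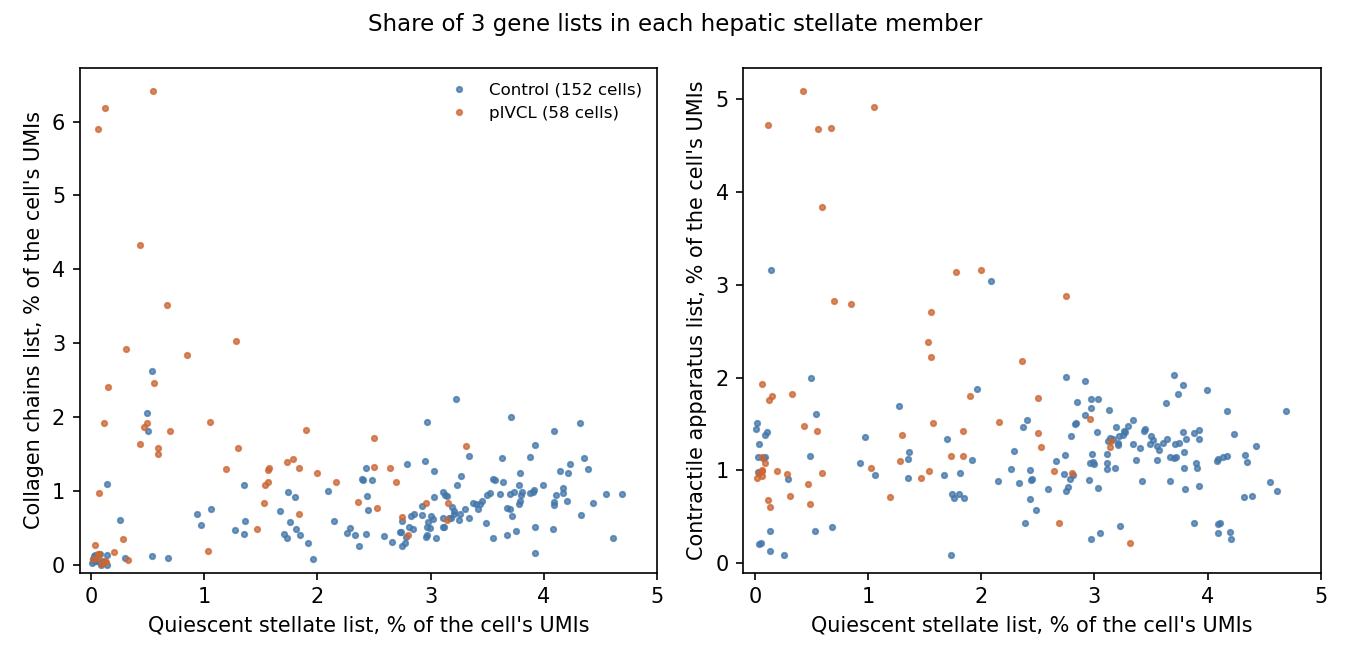
Each dot is 1 member with at least 1000 UMIs (152 Control, 58 pIVCL), with the quiescent stellate list's share of its UMIs on the x axis and that of the collagen chains (left) or the contractile list (right) on the y axis, in percent. Control cells gather at a median of 3.03% of the quiescent list and 0.728% of collagen, pIVCL cells spread from there to cells low in the former and high in the latter, and a few cells of both libraries lie near 0 for both lists.

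Members of both libraries varied widely in these shares. The quiescent list took a median of 3.03% of a Control cell's UMIs (quartiles 2.06% and 3.70%) and 1.04% of a pIVCL cell's (0.289% and 1.88%). Collagen chains took 0.728% (0.443% and 0.994%) and 1.30% (0.624% and 1.83%), reaching 2.62% in the highest Control cell and 6.41% in the highest pIVCL cell. The contractile list took 1.15% and 1.35%, with upper quartiles of 1.40% and 2.12%. The quartile ranges of the contractile list overlapped. For the quiescent list the upper quartile of the pIVCL cells lay below the lower quartile of the Control cells. These quartiles include members with fibroblast genes, a larger share of the pIVCL members, and were not taken for restricted members. The quiescent list summed to 24257 CPM in Control and 11860.1 CPM in pIVCL over all members. In restricted members the sums were nearer each other, at 29181 and 18741 CPM.

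In the restricted pIVCL members with at least 3 UMIs of Acta2 or Actg2 (7 cells), Col1a1 stood at 2267 CPM (1867 to 2728), Col3a1 at 5769 CPM and Tagln at 5890.3 CPM, against 1003, 2823 and 2617 CPM over all 42 restricted pIVCL members. Hgf had 3 UMIs in those 7 cells and Angptl6 had 6. The 18 pIVCL members with fibroblast genes had Tagln at 1527 CPM, and 5 of them also had at least 3 UMIs of Acta2 or Actg2. These 5 cells had Col1a1 at 9057 CPM (8118 to 10074) and Col3a1 at 14721 CPM.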

How the data were processed

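Single-cell libraries of mouse liver were compared between pIVCL and Control, 1 library each. The authors deposited UMI counts per gene and barcode, whole numbers with no normalization, for 31053 genes. The submitters' processing notes name Cell Ranger 3.0.2 and the mm10 build, and no source used here names the annotation release. Every deposited barcode had at least 500 UMIs.

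Members were taken by the marker rule, and UMIs were summed over them and scaled to CPM in Python 3.11.15 (numpy 2.4.6, scipy 1.17.1, matplotlib 3.10.9). No test was possible with 1 library in each group. Scripts were tested on simulated data. Doublets were not removed: Scrublet (run through scanpy 1.11.5 with the doublet rate set to 6%) called 5 Control and 3 pIVCL barcodes (0.183% and 0.0551%), none of them a member, too few to serve as a doublet filter. Gene coordinates are from GENCODE M21 (726 of 726 identifiers matched).

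The members and the 26 gene lists (719 of 722 symbols found, markers included) were chosen with earlier results of these data known. Genes named are the rule genes, 2 to 4 members of each list with the largest log2 ratios and members needed to say what did not move, and the 10 highest, 10 lowest and 10 most stellate-restricted genes. The ranking used genes with at least 30 UMIs and 50 CPM in the higher library, without mitochondrial, ribosomal, unnamed and immune receptor genes and those at least 10 times higher in another class. Other genes were named after their values were seen, and some genes that met the rule are not reported here. Marker limits, added CPM, minimum UMIs, thinning and cell sets were varied as alternatives.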

Additional observations from a re-analysis of the deposited data

How the results depend on the processing

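No paired analysis was possible because each group is 1 library. Results were recomputed under up to 16 planned and 5 added alternatives, the added ones chosen after seeing the data, and genes or lists with too few UMIs left under an alternative have no value there. The shares were recomputed only under alternatives that changed the marker rule or the barcode limits or removed called doublets. Among these, the pIVCL share was 1.90% with at least 2000 UMIs, and no other moved either share beyond its interval. Restricted members, a part of the members, were 5.50% and 0.771%, below both intervals. The number of genes past 2-fold higher (238) was 412 with 5 CPM added, 142 with 50 CPM, 155 with at least 50 UMIs and 124 after thinning. The number lower (241) was 675 with 5 CPM, 95 with 50 CPM and 395 with each cell weighted equally. Over all alternatives the range of 15 list medians and 11 gene log2 ratios included both signs. Where the interval of the main value excluded 0 (for a list, the median of its genes' limits), medians changed sign for vascular endothelial markers (1.54 with at least 8 marker UMIs, 0.03 with 0 UMIs of Ptprc, Stab2 and Epcam, 1.89 with at most 1 UMI of other lists, 2.57 without members with Vwf, Pecam1, Ccl21a, Mmrn1 and Lyve1), B cell markers (-0.25 with no minimum) and hepatocyte genes (0.45 at 10% mitochondrial UMIs). Genes that changed sign on the same terms were Loxl1 (-0.02 without fibroblast-gene members), Dnase1l3 (-1.19 without endothelial-gene members, -1.27 in restricted members), Serpinf2 (0.24 at 10%), Apoa1 (0.22 at 10%, 0.03 without its highest 5% of cells), Alb (0.39, 0.30) and Serpina1a (0.34, 0.32, and 0.06 after thinning). The cause was not tested. Thinning also moved the contractile median to 0.24 and the vasoactive median to -1.18. Depth limits genes under about 20 UMIs, since 1 UMI is 3.16 CPM in pIVCL.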

Other observations

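R-spondin 3, a Wnt amplifier that reaches pericentral hepatocytes from stellate and endothelial cells, had 960 UMIs or 905 CPM in Control members and 74 UMIs or 234 CPM in pIVCL members, a ratio of 0.258 (0.201 to 0.327) and of 0.377 (0.282 to 0.496) in restricted members. Sinusoidal endothelial cells had 186 and 97.8 CPM of Rspo3, and Kupffer cells 169 and 0.765 CPM (186 UMIs and 1 UMI). In the list of Wnt ligands, R-spondins and Notch genes, 5 of 23 were past 2-fold higher and 1 lower, with a median log2 ratio of -0.09. Notch3, a receptor of mural cells, had 28.3 and 117 CPM, and a log2 ratio of 0.16 in members with no UMI of Acta2 or Actg2. The 5 higher genes were Wnt5a, Sfrp1, Sfrp2, Dkk3 and Notch3. Of stellate genes of the central vein side, 3 of 7 were past 2-fold higher (Podn, Loxl1 and Adamtsl2) and 1 lower (Rspo3), with Podn, a proteoglycan, at 30.2 and 215 CPM. Of those of the portal side, 3 of 8 were higher (Tagln, Igfbp3 and Cd9) and 3 lower (Ngfr, Itgb3 and Vipr1), with a median of -0.61, so neither group moved in 1 direction. Among 31 cytokine, adhesion and NF-kB genes, Ncam1 and Lcn2 were past 2-fold higher and Steap4 lower, and the median was 0.00.

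Gpx3, a secreted glutathione peroxidase, had 71.6 and 439 CPM, while the metallothioneins Mt1 and Mt2 had 468 and 252 CPM and 123 and 60.0 CPM. Complement and coagulation genes had a median of 0.10 (3 of 18 past 2-fold higher, 1 lower), with Serpinf1 at 69.7 and 299.8 CPM. Heat shock genes had a median of 0.21, hypoxia and glycolysis genes 0.36 and antioxidant genes -0.10. Of 24 cell cycle genes, 10 had 20 UMIs, 1 of them past 2-fold higher, Stmn1 with 10 and 18 UMIs.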
